A study of Homo sapiens with 36 samples.

Results

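The comparison described here set neurons heterozygous for RAI1 (HET) against wild-type neurons (WT) after 7 days of differentiation, with 4 libraries in each group. Its 8 libraries were chosen by genotype and day from the 36 libraries of the series, which covers 3 genotypes (WT, HET and the knockout, KO) on days 0, 3 and 7 with 4 replicates in every group. All groups came from H9, an established human embryonic stem cell line, and all were turned into neurons by the transcription factor NGN2, whose expression was switched on with doxycycline. The day 7 cultures were kept in Neurobasal-A with B27, GDNF, NT3 and CultureOne. The HET group carried the label RAI1 Het and the WT group the label RAI1 WT. The labels give neither the position of the edit nor the number of clones behind the HET line, so the line and the genotype cannot be told apart. The replicates are described as biological, without saying whether they came from separate differentiations. The p-values below measure the spread between libraries of a group. In the fits over genes at day 7 that spread is estimated from the HET, WT and KO libraries together.

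RAI1 is a nuclear protein that binds chromatin and helps to set the transcription of neuronal genes. It is dosage sensitive: haploinsufficiency causes Smith-Magenis syndrome and duplication of its region causes Potocki-Lupski syndrome. It is found in a complex with TCF20 and PHF14, among other proteins. NGN2 is a proneural factor that drives stem cells directly into an excitatory neuronal fate, so that at day 7 the cultures hold young neurons that are still building axons, dendrites and synapses. RNA was depleted of ribosomal RNA before sequencing, so that noncoding structural RNAs are measured beside messenger RNAs.

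Levels are given as CPM, read counts divided by the library size and scaled by the trimmed mean of M-values over the genes tested. Differences are log2 fold changes of HET over WT with their standard error (SE). A gene is said to rise or fall when edgeR's quasi-likelihood test gave a Benjamini-Hochberg adjusted p under 0.05 over all genes tested. The 8 libraries held between 25774236 and 49503182 counts. The share of counts in 5 abundant small structural RNAs was 25.6, 14.5, 23.5 and 17.9% in WT and 27.5, 2.84, 4.17 and 13.4% in HET. HET replicates 2, 3 and 4 lay under every WT library and HET replicate 1 above them (exact two-sided permutation p = 0.229, adjusted 0.343 over 3 single values). HET replicate 1 stood apart from its group: its log2 CPM correlated with the other HET libraries at 0.943 to 0.955 across genes, and those correlated with each other at 0.982 to 0.994. WT replicate 1 was the least like its group, at 0.967 to 0.979. Calls, counts per list and shares by chromosome were therefore also computed without HET replicate 1 and without WT replicate 1.

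RAI1 itself (ENSG00000108557, chr17:17681473-17811453, plus strand, GRCh38, GENCODE annotation) was read at 35.03, 46.9, 45.1 and 68.9 CPM in the 4 WT libraries and at 71.2, 75.05, 80.1 and 46.9 CPM in the 4 HET libraries. The groups overlapped, since HET replicate 4 lay at the level of WT replicate 2. The HET mean was above the WT mean (49.0 ± 14.3 and 68.3 ± 14.7, SD, n = 4 each; exact two-sided permutation p = 0.0571, adjusted 0.171; with 4 against 4 the smallest p is 0.0286). The fit over all genes gave a log2 fold change 0.48 ± 0.22 (SE), adjusted p = 0.168. KO libraries held 79.2 CPM on average, and since the labels do not say what the edits do to the transcript, its level does not check the labels. None of RAI1, TCF20 and PHF14 passed the test: TCF20 had a log2 fold change 0.33 ± 0.19 (SE), adjusted p = 0.262, and PHF14 0.46 ± 0.16 with adjusted p = 0.071. PHF14 passed without HET replicate 1 (adjusted p = 0.00836) and without WT replicate 1 (adjusted p = 0.039).

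Both groups expressed the markers of neurons. All 11 defining markers were read in every library, 5 of them rose in HET (MAP2, NEFL, NEFM, ELAVL4 and SNAP25) and none fell. All 5 passed without HET replicate 1, but NEFL and SNAP25 did not without WT replicate 1 (adjusted p = 0.0501 and 0.0595). TUBB3, a neuronal tubulin, was at 2246, 2946, 4079 and 4754 CPM in WT and at 6656, 2367, 2468 and 2582 CPM in HET: HET replicate 1 was above all the other libraries, and the other HET libraries lay within the WT range (log2 fold change 0.01 ± 0.34 (SE), adjusted p = 0.995). The stem cell factors POU5F1 and NANOG, which define the undifferentiated state, had at most 9 and 5 counts in any of the 8 libraries and were not tested.

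Of 21714 genes tested, 1805 rose in HET (8.31%) and 1324 fell (6.1%). The change was at least 2-fold in 1353 of those that rose and 938 of those that fell. The 4 HET libraries lay wholly above or wholly below the 4 WT libraries for 3246 genes (14.9% of those tested), and 2355 genes were both called and free of overlap, 1245 higher and 1110 lower. Removal of HET replicate 1 raised the calls to 3670 higher (16.5%) and 4004 lower (18.0%) and kept 3103 of the 3129 calls. Leaving out WT replicate 1 cut them to 1242 (5.61%) and 884 (3.99%) and kept 2010. Without both, 3996 rose (18.2%) and 3459 fell (15.8%), and 2992 calls were kept. The counts per list given below are to be read beside these shares, those of the main fit (8.31% and 6.1%) and those of the fits without a replicate 1. HET replicates 2 and 3 weighed on the count too: without HET replicate 2, 1148 genes rose and 752 fell, and without HET replicate 3, 1004 rose and 696 fell. With only the HET and WT libraries in the fit, 935 rose and 739 fell. No call turned its direction in any of these fits, and 2008 genes, 1182 higher and 826 lower, were called with all libraries and without either replicate 1.

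**Figure D1:**
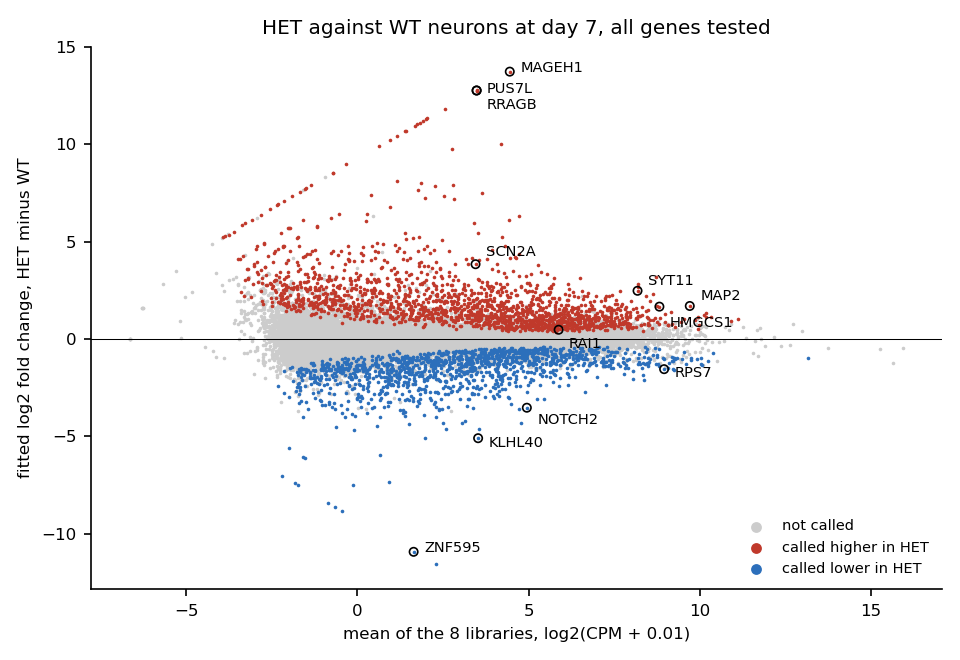
Each point is 1 of the 21714 genes tested; the x axis is the mean level over the 8 libraries as log2(CPM + 0.01) and the y axis the fitted log2 fold change of HET over WT, with the 1805 genes that rose in red and the 1324 that fell in blue. The labelled genes run from MAGEH1, at 0 in WT, to ZNF595, at 0 in HET, and the diagonal of points at the upper left holds genes with almost no counts in WT, whose fitted fold change is no measured size.

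Genes of neuronal structure were among those that rose. Among the pan-neuronal genes 8 of 20 rose and 1 fell, with a median log2 fold change of 0.68 against 0.005 over all genes tested. Leaving out HET replicate 1 gave 11 higher and 1 lower, and leaving out WT replicate 1 gave 7 and 1. With limma on log2(TPM + 1), no pan-neuronal gene passed, and 179 genes rose and 92 fell over all genes. The pan-neuronal median there was 1.595, beside 0.46 over all genes. No microtubule, postsynaptic, sodium or calcium channel or axon guidance gene rose on that scale. Of the presynaptic genes 3 rose there, of the adhesion genes 2, and 1 each of the ionotropic receptor and potassium channel genes. MAP2, which bundles microtubules in dendrites, was at 153, 454, 421 and 539.9 CPM in WT and 627, 1508, 1703 and 1261 CPM in HET (log2 fold change 1.70 ± 0.36 (SE), adjusted p = 0.00818). Every HET library was above every WT library, and replicate 1 was the lowest of its group in both genotypes. INA, a neurofilament subunit, rose by 1.39 ± 0.30 and MAPT, the axonal microtubule protein tau, by 1.24 ± 0.32 (adjusted p = 0.00882 and 0.0207); the MAPT groups overlapped at HET replicate 4. ELAVL4, an RNA-binding protein of neurons, rose by 1.54 ± 0.28 (adjusted p = 0.00377). The member that fell was its relative ELAVL2, at 672, 463, 423 and 454 CPM in WT and 113, 290.3, 196 and 301 CPM in HET (log2 fold change -1.16 ± 0.28 (SE), adjusted p = 0.0148), with no overlap between the groups.

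Of 29 tubulins and microtubule proteins 9 rose and none fell, with a median of 0.61. When HET replicate 1 was left out 13 rose and 3 fell, and when WT replicate 1 was, 9 and 0. DCLK1, a microtubule-binding kinase of migrating and growing neurons, was at 29.9, 83.1, 76.9 and 112 CPM in WT and 141, 385, 462 and 210.3 CPM in HET (log2 fold change 1.99 ± 0.41 (SE), adjusted p = 0.00678). DPYSL3, a protein of the growth cone, rose by 1.23 ± 0.27 (adjusted p = 0.00978). Neither gene's groups overlapped. The summed level of the list was 20790 to 39500 in WT and 38680 to 49390 in HET CPM, with WT replicate 1 the lowest.

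The neuronal RNA-binding and splicing proteins moved both ways: 4 of 26 rose and 4 fell, with a median of 0.24. In the fits without HET replicate 1 and without WT replicate 1, 6 and 5 rose and 5 and 3 fell. Those that rose were ELAVL4, NOVA1, CELF4 and CELF5; CELF4 rose by 1.65 ± 0.33 and CELF5 by 1.31 ± 0.30 (adjusted p = 0.00625 and 0.0115). Those that fell were ELAVL2, QKI, PTBP1 and MBNL2. QKI, which binds RNA in glia and progenitors, was at 221, 122, 108 and 94.5 CPM in WT and 57.2, 48.1, 45.3 and 64.9 CPM in HET (log2 fold change -1.34 ± 0.24 (SE), adjusted p = 0.0033), without overlap. PTBP1, which represses neuronal exons in dividing cells and was named after its value was seen, had a log2 fold change of -0.81 (adjusted p = 0.0126).

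Genes of the synapse rose on both sides of the cleft. On the presynaptic side, 15 of 31 genes rose and none fell, with a median of 0.71. Leaving out HET replicate 1 gave 18 higher and 2 lower, and leaving out WT replicate 1 gave 9 and 0. SYN3, a synapsin that tethers synaptic vesicles, was at 3.48, 27.2, 24.2 and 15.3 CPM in WT and 189, 92.9, 137 and 80.7 CPM in HET (log2 fold change 2.83 ± 0.49 (SE), adjusted p = 0.0031). All HET libraries exceeded all WT libraries, and WT replicate 1 was the lowest and HET replicate 1 the highest of the 8. SYT11, a synaptotagmin of vesicle traffic, was at 50.3, 88.2, 109 and 104 CPM in WT and 450.3, 531, 474 and 509.7 CPM in HET (log2 fold change 2.48 ± 0.21 (SE), adjusted p = 1.74e-05). Its HET libraries were close together and far above WT. RAB3C, a vesicle GTPase, rose by 2.18 ± 0.41 and NRXN2, a presynaptic adhesion receptor, by 1.70 ± 0.27 (adjusted p = 0.00467 and 0.002), both without overlap.

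Of 26 postsynaptic scaffold and adhesion genes 16 rose and HOMER3 fell (log2 fold change -0.98, adjusted p = 0.0463). The median was 0.86. When HET replicate 1 was left out 17 rose and 2 fell, and when WT replicate 1 was, 14 and 0. SHANK1 and SHANK2, master scaffolds of the excitatory postsynaptic density, rose by 1.68 ± 0.24 and 1.82 ± 0.34 (adjusted p = 0.00109 and 0.00462). SHANK2 was at 3.00, 9.20, 10.0 and 10.3 CPM in WT and 17.4, 31.9, 38.8 and 26.7 CPM in HET. NLGN3, a neuroligin that pairs with neurexins, rose by 1.72 ± 0.37 and LRRTM4, a neurexin and heparan sulfate ligand of excitatory synapses, by 1.74 ± 0.35 (adjusted p = 0.00931 and 0.00612). None of these 4 genes had overlapping groups.

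Of the neuronal adhesion molecules 21 of 42 rose and CDH6, a classical cadherin, fell (log2 fold change -1.47, adjusted p = 0.0219), with a median of 1.05 (0.68 with the small RNA share as a covariate). In the fits without HET replicate 1 and without WT replicate 1, 24 and 15 rose and 2 and 1 fell. PCDH7, a protocadherin, was at 0.198, 1.49, 0.986 and 1.53 CPM in WT and 2.33, 26.2, 39.2 and 9.78 CPM in HET (log2 fold change 4.18 ± 0.76 (SE), adjusted p = 0.00387). NCAM2, a cell adhesion molecule of axons, was at 1.05, 3.83, 2.58 and 2.96 CPM in WT and 11.01, 49.9, 97.3 and 27.96 CPM in HET (log2 fold change 4.15 ± 0.60 (SE), adjusted p = 0.00111). In both genes the HET libraries spanned a wide range, with replicate 1 lowest and replicate 3 highest, and stayed above all WT libraries. TENM1, a teneurin that matches synaptic partners, rose by 3.84 ± 0.45 and OPCML, a GPI-anchored adhesion protein, by 3.44 ± 0.76 (adjusted p = 2.58e-04 and 0.00962).

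Of 33 ionotropic receptor subunits 14 rose and 2 fell, with a median of 1.09. Leaving out HET replicate 1 gave 18 higher and 4 lower, and leaving out WT replicate 1 gave 12 and 2. GABRA3, a GABA-A receptor subunit, was at 0.198, 1.80, 1.78 and 1.06 CPM in WT and 2.48, 17.1, 22.1 and 4.44 CPM in HET (log2 fold change 3.25 ± 0.73 (SE), adjusted p = 0.0105), without overlap. GRIK1, a kainate receptor subunit, rose by 3.58 ± 0.85, GLRA2, a fetal glycine receptor subunit, by 2.89 ± 0.64, and GRIN2A, an NMDA receptor subunit of maturing synapses, by 2.64 ± 0.62 (adjusted p = 0.014, 0.0102 and 0.0129); the last pair overlapped with WT in 1 library. CHRNB4, a nicotinic receptor subunit, was among those that fell (log2 fold change -1.90, adjusted p = 0.026).

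Among the voltage-gated sodium and calcium channel genes 12 of 30 rose and none fell, with a median of 0.67 (0.41 with the small RNA share as a covariate); 17 rose and 4 fell without HET replicate 1, and 12 and 0 without WT replicate 1. SCN2A, the early axonal sodium channel of excitatory neurons, was at 0.340, 2.25, 1.56 and 1.47 CPM in WT and 2.45, 29.9, 42.7 and 6.57 CPM in HET (log2 fold change 3.85 ± 0.78 (SE), adjusted p = 0.00666). HET replicates 2 and 3 were far above the rest, replicate 4 was intermediate, and replicate 1 was just above the highest WT library. SCN9A, a sodium channel of peripheral neurons, rose by 2.69 ± 0.63, CACNA1E, an R-type calcium channel, by 2.80 ± 0.49, and CACNA2D3, an auxiliary calcium channel subunit, by 2.54 ± 0.41 (adjusted p = 0.0132, 0.00309 and 0.00195). In SCN9A, HET replicate 1 lay within the WT range. SCN2A overlaps SCN3A and CACNA2D3 overlaps LRTM1 on the other strand. Whether the counting used strand is not given in the sources used here, so reads of such pairs may be shared. The same holds for 63 of the 134 genes chosen by rule for naming, which overlap another annotated gene.

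Potassium channel genes rose in 15 of 40 cases and fell in 3 (KCNC4, KCNH6 and KCNH7), with a median of 0.81. When HET replicate 1 was left out 17 rose and 3 fell, and when WT replicate 1 was, 14 and 3. KCNMA1, the BK channel gated by voltage and calcium, was at 1.076, 3.40, 4.99 and 1.99 CPM in WT and 16.2, 22.4, 35.1 and 13.9 CPM in HET (log2 fold change 2.94 ± 0.41 (SE), adjusted p = 9.61e-04), without overlap. KCNQ3, a subunit of the M-current, rose by 2.32 ± 0.38, and the leak channels KCNK9 and KCNK10 rose by 2.89 ± 0.49 and 2.36 ± 0.45 (adjusted p = 0.00224, 0.00275 and 0.00477).

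Of 22 transmitter identity genes 6 rose and CHAT, which makes acetylcholine, fell (log2 fold change -1.27 ± 0.37 (SE), adjusted p = 0.0381). The median was 1.43, and 0.65 with the small RNA share as a covariate. In the fits without HET replicate 1 and without WT replicate 1, 9 and 6 rose and 2 and 0 fell. CHAT was at 12.7, 10.8, 13.7 and 8.78 CPM in WT and 9.28, 3.19, 2.34 and 4.25 CPM in HET, with HET replicate 1 inside the WT range, and it did not pass without WT replicate 1 (adjusted p = 0.0822). SLC17A6, the vesicular glutamate transporter of NGN2 neurons, was at 34.8, 70.9, 78.6 and 87.4 CPM in WT and 89.0, 264, 397 and 143 CPM in HET (log2 fold change 1.72 ± 0.40 (SE), adjusted p = 0.0126). Its groups did not overlap, although HET replicate 1 was just above WT replicate 4. GAD2, a GABA-making enzyme, rose by 3.17 ± 0.62 (adjusted p = 0.00531). It was at 0.170, 1.76, 1.21 and 0.561 CPM in WT and 3.58, 8.66, 9.69 and 11.7 CPM in HET. SLC1A2, a glutamate uptake transporter also used as a marker of astroglia, rose by 1.60 ± 0.24 (adjusted p = 0.00128).

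Neuropeptide genes rose in 7 of 21 tested cases and none fell, with a median of 1.53 (1.01 without HET replicate 1). Leaving out HET replicate 1 gave 9 higher and 1 lower, and leaving out WT replicate 1 gave 7 and 0. VGF, a secreted peptide precursor of active neurons, was at 2.83, 5.25, 6.71 and 9.39 CPM in WT and 18.0, 89.0, 77.6 and 58.6 CPM in HET (log2 fold change 3.33 ± 0.46 (SE), adjusted p = 8.25e-04), without overlap and with HET replicate 1 the lowest of its group. The prohormone convertases PCSK1 and PCSK2 rose by 2.04 ± 0.43 and 2.11 ± 0.34, and ADCYAP1, which encodes the peptide PACAP, by 2.01 ± 0.33 (adjusted p = 0.00811, 0.00185 and 0.00214).

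Axon guidance genes rose in 12 of 41 cases and fell in 3, with a median of 0.60 (0.39 without WT replicate 1); 17 rose and 7 fell without HET replicate 1, and 10 and 2 without WT replicate 1. PLXNC1, a semaphorin receptor, was at 1.73, 4.64, 4.05 and 3.21 CPM in WT and 12.3, 20.7, 27.8 and 10.4 CPM in HET (log2 fold change 2.38 ± 0.35 (SE), adjusted p = 0.00117), without overlap. UNC5D, a netrin and FLRT receptor, rose by 2.24 ± 0.43 and SEMA3D, a secreted guidance cue, by 2.29 ± 0.68 (adjusted p = 0.00499 and 0.0406); SEMA3D did not pass without WT replicate 1 (adjusted p = 0.0868). The related cue SEMA3C fell, from 64.1, 54.0, 42.8 and 56.6 CPM in WT to 8.73, 12.6, 7.95 and 23.4 CPM in HET (log2 fold change -2.05 ± 0.39 (SE), adjusted p = 0.00468); the other members that fell were NRP2 and EFNB2. Of 15 neurotrophin and receptor genes 3 rose and none fell. When HET replicate 1 was left out 7 rose and 1 fell, and when WT replicate 1 was, 4 and 0. They were RET, a receptor for GDNF (log2 fold change 3.15 ± 0.72 (SE), adjusted p = 0.012), NGFR, the low-affinity neurotrophin receptor (1.80 ± 0.40, adjusted p = 0.0105), and SORCS1, a sorting receptor (1.60 ± 0.45, adjusted p = 0.0298). RET was at 2.15, 15.6, 19.8 and 35.3 CPM in WT and 22.3, 239, 191 and 193 CPM in HET, and HET replicate 1 lay within the WT range.

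**Figure D2:**
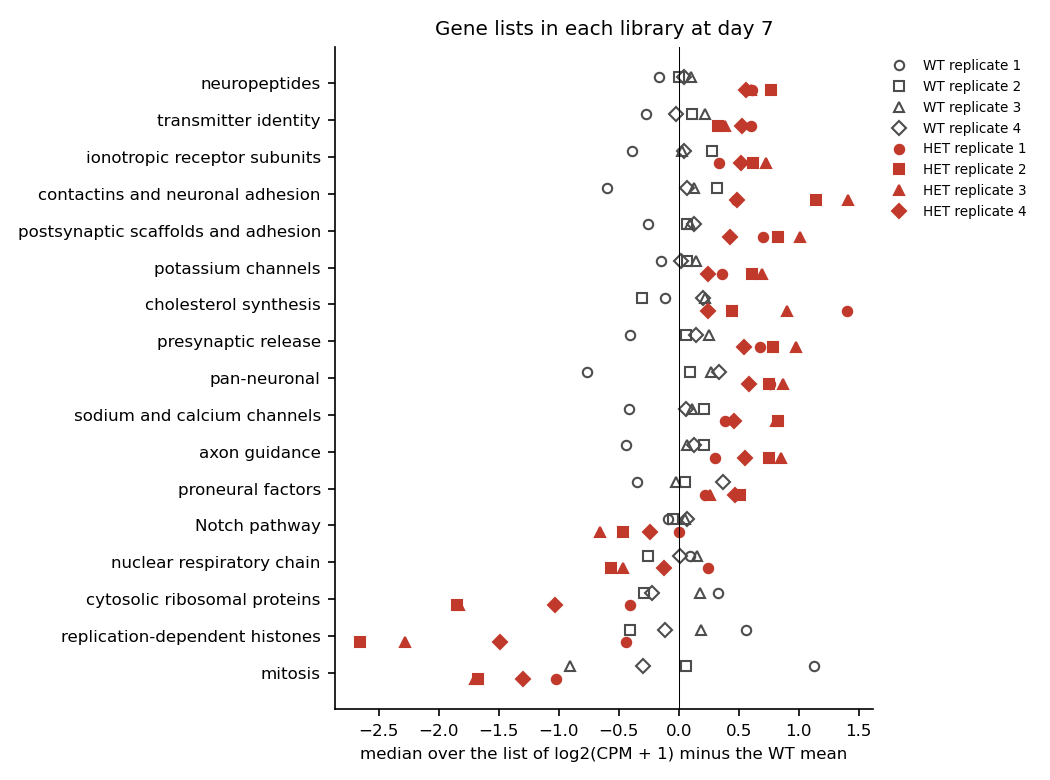
Each row is a gene list, and each point is 1 library at its median over the tested members of log2(CPM + 1) minus the WT mean; open grey symbols are the 4 WT libraries and filled red symbols the 4 HET libraries. The neuronal lists sit to the right of 0 in every HET library, while ribosomal proteins, histones and mitosis genes sit to the left, with HET replicate 1 nearest to WT and WT replicate 1 farthest in the other direction for mitosis (1.13 on the log2 scale).

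Proneural factors, which start neuronal differentiation, split. Of 21 proneural factors 5 rose and 3 fell, with a median of 0.38. In the fits without HET replicate 1 and without WT replicate 1, 7 and 4 rose and 4 and 2 fell. NEUROD1, a basic helix-loop-helix factor that acts soon after NGN2, was at 526, 351, 415 and 421 CPM in WT and 208, 74.1, 24.9 and 112 CPM in HET (log2 fold change -2.03 ± 0.50 (SE), adjusted p = 0.0166). All WT libraries were above all HET libraries, and HET replicate 1 was the highest of its group. NEUROG1 and NEUROD4, factors of the same family, fell by 1.89 and 1.60 on the log2 scale (adjusted p = 0.0124 and 0.0348); NEUROD4 did not pass without WT replicate 1 (adjusted p = 0.108). MYT1L, a factor that stabilises the neuronal state and is expressed after these, rose from 0.935, 7.42, 5.42 and 7.51 CPM in WT to 13.3, 36.7, 50.1 and 25.9 CPM in HET (log2 fold change 2.56 ± 0.51 (SE), adjusted p = 0.00596), without overlap.

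In the Notch pathway, which holds progenitors back from differentiation, 1 of 24 genes rose and 3 fell; the median of -0.34 turned to 0.44 on the scale of log2(TPM + 1), where the median of all genes was 0.46. Without HET replicate 1, 10 fell with a median of -0.65, beside 18.0% of all genes tested that fell, and without WT replicate 1, 3 fell. NOTCH2, a receptor, was at 62.0, 72.5, 43.4 and 48.9 CPM in WT and 6.57, 4.31, 3.00 and 5.82 CPM in HET (log2 fold change -3.53 ± 0.27 (SE), adjusted p = 6.30e-06). NOTCH3, another receptor, had 27.7, 19.2, 16.8 and 16.9 CPM in WT and 4.59, 2.23, 1.33 and 3.06 CPM in HET (log2 fold change -2.84 ± 0.34 (SE), adjusted p = 2.61e-04). The target gene HEYL, a transcriptional repressor, fell by 2.44 on the log2 scale (adjusted p = 0.00315). All 3 were free of overlap. DNER, a neuronal transmembrane protein that binds Notch, rose by 2.01 ± 0.43 (adjusted p = 0.00872).

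Of 19 neural progenitor genes 2 rose and 1 fell, beside 8.31% and 6.1% of all genes tested. The median was -0.43, and -0.28 without WT replicate 1. On the TPM scale it was 0.18, beside 0.46 over all genes. Leaving out HET replicate 1 gave 3 higher and 4 lower, and leaving out WT replicate 1 gave 2 and 0. LIN28A, an RNA-binding protein of stem cells and early progenitors, was at 12.01, 24.4, 25.1 and 27.7 CPM in WT and 51.9, 103, 127 and 97.8 CPM in HET (log2 fold change 2.09 ± 0.29 (SE), adjusted p = 9.05e-04), without overlap. PROM1, a membrane protein of progenitors, rose to 0.457, 4.08, 2.13 and 1.19 CPM from 0.170, 0.428, 0.301 and 0.388 CPM (adjusted p = 0.01). SOX1, a progenitor transcription factor, fell (log2 fold change -1.93 ± 0.56, adjusted p = 0.0364) and did not pass without WT replicate 1 (adjusted p = 0.113). SOX2, which marks progenitors and stem cells, was at 19.4, 9.65, 10.5 and 10.4 CPM in WT and 7.86, 12.4, 7.10 and 10.6 CPM in HET and did not pass (adjusted p = 0.417).

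Regional and subtype identity genes split. Among 23 sensory and peripheral identity genes 3 rose and 5 fell. When HET replicate 1 was left out 5 rose and 6 fell, and when WT replicate 1 was, 2 and 6. SIX4, a homeobox factor of placodes and sensory ganglia, was at 143, 112, 120.3 and 83.5 CPM in WT and 40.1, 36.5, 17.3 and 25.2 CPM in HET (log2 fold change -1.95 ± 0.31 (SE), adjusted p = 0.00182), without overlap. POU4F2, a factor of retinal ganglion and sensory neurons, rose by 1.53 ± 0.42 (adjusted p = 0.0281). Of 18 cortical identity genes 4 rose and 4 fell. In the fits without HET replicate 1 and without WT replicate 1, 4 and 2 rose and 5 and 4 fell. BCL11A, a zinc finger factor of deep-layer and other neurons, was at 30.8, 13.5, 11.97 and 10.6 CPM in WT and 2.26, 1.37, 1.28 and 1.31 CPM in HET (log2 fold change -3.42 ± 0.47 (SE), adjusted p = 8.37e-04). LMO3, a LIM-only cofactor, rose to 13.2, 18.1, 116 and 5.82 CPM from 0.481, 1.49, 1.51 and 2.14 CPM (log2 fold change 4.76 ± 0.92 (SE), adjusted p = 0.00512) and HET replicate 3 was the highest by far.

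Genes of cell division were lower. Of 35 mitosis genes 27 fell and none rose, with a median of -1.95 (29 fell without HET replicate 1, and 13 without WT replicate 1, with medians of -2.46 and -1.48). With the small RNA share as a covariate 16 fell with a median of -1.53. On the scale of log2(TPM + 1) 4 fell with a median of -0.32, beside 0.46 over all genes. The summed level of the list was 767, 373, 198 and 263 CPM in WT and 174, 138, 118 and 198 CPM in HET, so that WT replicate 1 alone held the highest level and WT replicate 3 was level with HET replicate 4. CCNB2, a cyclin of the entry into mitosis, was at 20.5, 8.43, 3.12 and 6.17 CPM in WT and 1.51, 0.127, 0.183 and 1.38 CPM in HET (log2 fold change -3.59 ± 0.74 (SE), adjusted p = 0.00705), without overlap. KIF20A, a kinesin of cytokinesis, fell by 3.89, DLGAP5, a spindle protein, by 3.43 and UBE2C, a ubiquitin conjugator of mitotic exit, by 3.49 on the log2 scale (adjusted p = 0.0103, 0.00696 and 0.0321). In these 3 the WT replicate 3 level lay within the HET range, and UBE2C did not pass without WT replicate 1 (adjusted p = 0.105). In bulk RNA a smaller number of dividing cells and less of these transcripts per cell cannot be told apart.

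DNA replication genes fell in 7 of 28 cases and none rose, with a median of -0.28. On the TPM scale the median was 0.40, beside 0.46 over all genes. Without HET replicate 1, 10 fell and 2 rose, and without WT replicate 1, 2 fell. MCM3, a subunit of the replicative helicase, was at 32.7, 28.6, 31.0 and 28.7 CPM in WT and 23.5, 17.9, 14.5 and 18.7 CPM in HET (log2 fold change -0.70 ± 0.16 (SE), adjusted p = 0.0112), without overlap. On the log2(TPM + 1) scale its difference was 0.14. RRM2, a ribonucleotide reductase subunit, had 18.0, 6.27, 2.03 and 5.52 CPM in WT and 2.501, 0.228, 0.183 and 0.747 CPM in HET (log2 fold change -3.11 ± 0.80 (SE), adjusted p = 0.0205), and WT replicate 1 was the highest of all. RRM2, CHAF1A, a histone chaperone subunit (log2 fold change -0.69), and UHRF1, which keeps DNA methylation through replication (-0.97, and 0.04 on the TPM scale), did not pass without WT replicate 1 (adjusted p = 0.0691, 0.114 and 0.0521).

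Replication-dependent histones, whose transcripts lack poly(A) tails and are made in S phase, fell in 22 of 41 cases, with a median of -1.66 and all 41 values below 0. The number that fell was 40 without HET replicate 1, where the median was -2.63, and 11 without WT replicate 1. With the small RNA share as a covariate 24 fell, with a median of -1.23. The summed level was 1877, 885, 1545 and 1119 CPM in WT and 1376, 201, 304.5 and 566 CPM in HET, with HET replicate 1 inside the WT range. H1-5, a linker histone, was at 76.0, 24.1, 23.3 and 37.6 CPM in WT and 10.1, 0.886, 1.03 and 4.07 CPM in HET (log2 fold change -3.32 ± 0.72 (SE), adjusted p = 0.00881). Core histone genes fell as well: H3C2 by 4.62, H3C8 by 4.64 and H2AC14 by 3.32 on the log2 scale (adjusted p = 0.00808, 0.0147 and 0.0034). H3C8 just missed the threshold without WT replicate 1 (adjusted p = 0.0506). Histone genes are near-identical copies, so the division of reads among them is uncertain.

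**Figure D3:**
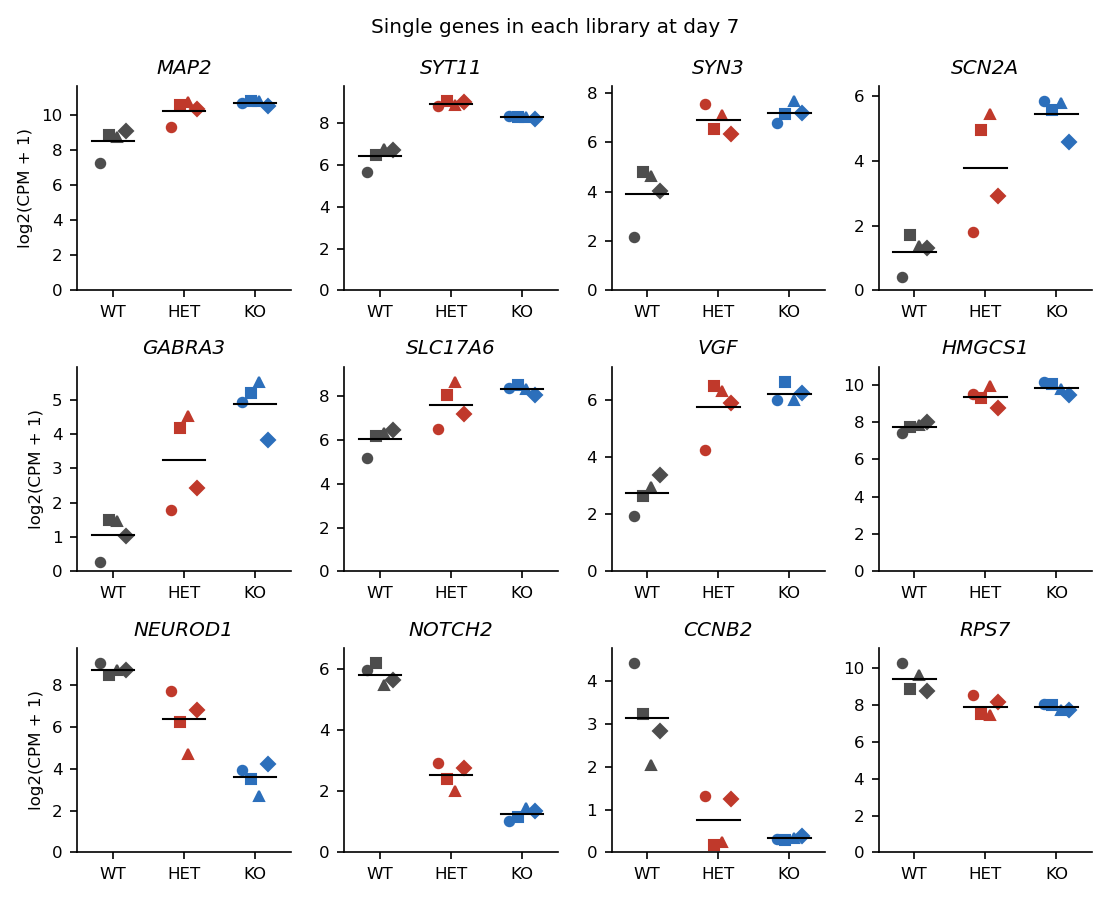
Each panel is 1 gene, with log2(CPM + 1) on a y axis from 0 and the 4 libraries of WT, HET and KO at day 7 as points (circle, square, triangle and diamond for replicates 1 to 4); bars are group means. For the first 8 genes every HET point lies above every WT point, and for the last 4 every HET point lies below.

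Cytosolic ribosomal protein genes, which build the machinery of translation, were lower in HET. Of 77 tested, 47 fell and none rose; all 77 had values below 0, and the median was -1.13. RPS7, a protein of the small subunit, was at 1237, 474, 802 and 441 CPM in WT and 377, 179, 172 and 284 CPM in HET (log2 fold change -1.54 ± 0.34 (SE), adjusted p = 0.00918). RPS27 fell by 1.78, RPL39 by 1.63 and RPL26 by 1.59 on the log2 scale (adjusted p = 0.00791, 0.00239 and 0.00268), all without overlap. The summed level was 56400, 35930, 49570 and 37760 CPM in WT and 34620, 13270, 14000 and 20620 CPM in HET, and HET replicate 1 was close to the lowest WT library. All 77 fell without HET replicate 1 and 38 without WT replicate 1. On the TPM scale their median was -0.38, beside 0.46 for all genes, and no member passed limma's test there. Within HET the level was lowest in replicate 2, which also had the smallest share of small structural RNAs, and highest in replicate 1, which had the largest. The WT libraries too ranked alike by level and by share, with replicate 1 highest and replicate 2 lowest in both. In a fit with that share as a covariate 62 fell, with a median nearer to that of all genes, -0.80.

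The 5 small structural RNAs themselves did not pass. RN7SL1, the RNA of the signal recognition particle, was at 87610, 40190, 93010 and 69650 CPM in WT and 144800, 8412, 14510 and 43800 CPM in HET (log2 fold change -0.46 ± 0.68 (SE), adjusted p = 0.709), so that HET replicate 1 was the highest and replicates 2 and 3 the lowest of the 8. Without HET replicate 1 all 5 fell. With their share of the counts as a covariate, 1953 of the 3129 calls were kept, and 15 genes chosen by rule did not pass: GRIK1, NDUFA5, RET, HK1, SORCS1, SMAD7, NAP1L5, POU4F2, HK2, TIGAR, CHAF1A, TGFB2, RDH10, TNC and SEMA3D (adjusted p = 0.0615 to 0.303). In that fit 6 axon guidance and 14 cholesterol genes rose, and 4 DNA replication and 2 BMP and TGF-beta genes fell. Transcripts of the mitochondrial genome gave no call among 13, with a median of 0.16 that was 0.45 without HET replicate 1 and -0.86 with the small RNA share as a covariate; MT-CO1, a subunit of cytochrome oxidase, was at 3958, 6240, 3216 and 4255 CPM in WT and 1615, 6695, 5087 and 5517 CPM in HET, with HET replicate 1 the lowest (adjusted p = 0.899). Of 58 nuclear genes of the respiratory chain 1 rose and none fell, with a median of -0.21. It was 0.65 on the TPM scale, beside 0.46 over all genes, and 0.02 with the small RNA share as a covariate. The gene that rose was NDUFA5, a subunit of complex I (log2 fold change 0.93 ± 0.22 (SE), adjusted p = 0.0132), at 81.6, 51.4, 58.6 and 45.8 CPM in WT and 74.2, 138, 117 and 123 CPM in HET with HET replicate 1 inside the WT range. Without HET replicate 1, 22 fell and 3 rose, beside 18.0% and 16.5% of all genes tested, so the count for this list depends on that library.

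Of 25 genes of cholesterol synthesis and uptake 8 rose and 1 fell, 24 had values above 0, and the median was 0.77. When HET replicate 1 was left out 10 rose and 1 fell, and when WT replicate 1 was, 7 and 1. HMGCS1, a synthase early in the pathway, was at 166, 214, 227 and 256 CPM in WT and 715, 613, 979 and 435 CPM in HET (log2 fold change 1.67 ± 0.25 (SE), adjusted p = 0.00139), without overlap. ACAT2, which makes acetoacetyl-CoA, rose by 1.66 ± 0.30 and MVD, a mevalonate pathway enzyme, by 1.47 ± 0.41 (adjusted p = 0.00404 and 0.0288); MVD was highest in HET replicate 1 and did not pass without WT replicate 1 (adjusted p = 0.0818).

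Of 24 glycolysis genes 5 rose and LDHB, a lactate dehydrogenase subunit, fell (log2 fold change -0.65 ± 0.17 (SE), adjusted p = 0.0227), with a median of 0.52 (0.18 without HET replicate 1). In the fits without HET replicate 1 and without WT replicate 1, 7 and 3 rose and 2 and 0 fell. HK1, the hexokinase of brain, was at 83.2, 178, 222 and 219 CPM in WT and 306, 409, 604 and 306 CPM in HET (log2 fold change 1.21 ± 0.31 (SE), adjusted p = 0.0211), without overlap. SLC2A1, a glucose transporter, rose by 1.77 ± 0.39, HK2, an inducible hexokinase, by 1.91 ± 0.54 and ENO2, the neuronal enolase, by 1.083 ± 0.30 (adjusted p = 0.0101, 0.0307 and 0.0269). HK2, ENO2 and LDHB did not pass without WT replicate 1 (adjusted p = 0.0868, 0.0678 and 0.0567).

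Of 34 collagen and matrix genes 5 rose and 10 fell. The median was -0.47, and 0.16 on the TPM scale, beside 0.46 there over all genes. Without HET replicate 1, 6 rose and 13 fell, and without WT replicate 1, 2 and 8. CTHRC1, a secreted matrix protein, was at 3.94, 10.0, 6.03 and 10.2 CPM in WT and 0.0962, 0.279, 0.160 and 0.373 CPM in HET (log2 fold change -5.09 ± 0.58 (SE), adjusted p = 2.07e-04). KO libraries held 5.07 CPM, and KO exceeded HET (log2 fold change 4.51, adjusted p = 0.00142). COL1A2, a fibrillar collagen, and COL4A5, a basement membrane collagen, fell by 2.69 and 2.98 on the log2 scale (adjusted p = 0.00624 and 0.0201). TNC, tenascin C, rose to 39.8, 1367, 814 and 805 CPM from 16.6, 156, 62.6 and 98.5 CPM (log2 fold change 3.18 ± 0.92 (SE), adjusted p = 0.0349), with HET replicate 1 inside the WT range. COL4A5 and TNC did not pass without WT replicate 1 (adjusted p = 0.0569 and 0.0813).

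In the WNT pathway 2 of 35 genes rose and 10 fell, with a median of 0.05 that turned to -0.25 without HET replicate 1 and to -0.08 with the small RNA share as a covariate (4 rose and 13 fell without HET replicate 1, and 2 and 8 without WT replicate 1). SFRP1, a secreted WNT antagonist, was at 361, 824, 581 and 391.7 CPM in WT and 244, 73.5, 68.2 and 109 CPM in HET (log2 fold change -2.12 ± 0.41 (SE), adjusted p = 0.0051). The receptors FZD7 and FZD2 fell by 2.05 and 1.92 on the log2 scale, while the receptor FZD1 rose by 1.75 (adjusted p = 4.39e-04, 0.00843 and 0.00585). None of these 4 overlapped between groups. In the BMP and TGF-beta pathway 1 of 34 rose and 5 fell (4 rose and 8 fell without HET replicate 1, and 1 and 2 without WT replicate 1): BMP2, a ligand, rose by 1.53 ± 0.28 (adjusted p = 0.00359), and the ligands TGFB2 and TGFB3 and the inhibitor SMAD7 fell by 2.32, 1.26 and 1.14 on the log2 scale (adjusted p = 0.0406, 0.0357 and 0.0369). TGFB2 and SMAD7 did not pass without WT replicate 1 (adjusted p = 0.143 and 0.0667).

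Of 14 retinoic acid genes 2 rose and 1 fell, beside 8.31% and 6.1% of all genes tested. Without HET replicate 1, 2 rose and 4 fell, and without WT replicate 1, 2 and 1. RDH10, which makes retinal, was at 3.23, 2.37, 3.31 and 3.09 CPM in WT and 2.38, 12.9, 12.3 and 14.3 CPM in HET (log2 fold change 1.80 ± 0.46 (SE), adjusted p = 0.0202); HET replicate 1 was as low as WT and the other 3 were high. CRABP2, which carries retinoic acid to the nucleus, rose by 1.51 ± 0.30 (adjusted p = 0.00625), and CYP26B1, which degrades it, fell (log2 fold change -3.63, adjusted p = 0.0153). Among 14 tested HOX genes 4 rose, among them HOXA2, HOXA3 and HOXB9, and none fell, with a median of 2.21. The summed level was 26.6, 12.9, 14.6 and 27.1 CPM in WT and 353, 11.02, 14 and 29.9 CPM in HET. The level was far above WT in HET replicate 1 alone, and without that library 3 rose and the median was 0.40. Without WT replicate 1, 2 rose. HOXB9, a posterior homeobox gene, was at 137, 0, 0 and 7.43 CPM in HET and at 3 counts or fewer in each WT library, and it did not pass without HET replicate 1 (adjusted p = 0.0601) or without WT replicate 1 (adjusted p = 0.0734).

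The counts of the remaining lists follow, beside 8.31% of all tested genes that rose and 6.10% that fell. Values on the TPM scale are to be read beside the median of 0.46 over all genes there. Imprinted genes rose in 4 of 29 cases (9 rose and 0 fell without HET replicate 1, and 1 and 0 without WT replicate 1): H19, a growth-restraining noncoding RNA, by 1.97 ± 0.52, NAP1L5 by 1.16 ± 0.29 and BLCAP by 0.73 ± 0.16 (adjusted p = 0.0238, 0.0179 and 0.00811). Only BLCAP of these 3 passed without WT replicate 1. Of 15 DNA methylation genes 1 rose and UHRF1 fell, as above; without WT replicate 1 none passed. Of 21 circadian clock genes 2 rose and 2 fell (2 rose and 5 fell without HET replicate 1, and 2 and 2 without WT replicate 1), among them PER3, a period gene (log2 fold change -1.07 ± 0.23, adjusted p = 0.00839), and TEF, a clock-output factor (-0.85 ± 0.18, adjusted p = 0.009, and 0.03 on the TPM scale), both lower. Immediate early genes rose in 2 of 18 cases (3 rose and 4 fell without HET replicate 1, and 2 and 0 without WT replicate 1), among them FOSL2, an AP-1 subunit (log2 fold change 1.74 ± 0.30 (SE), adjusted p = 0.00278). In the MAGE family MAGEH1 rose and NSMCE3, a subunit of the SMC5/6 complex, fell (log2 fold change -0.48 ± 0.12 (SE), adjusted p = 0.0201, and 0.35 on the TPM scale) among 11 tested.

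In the 17p11.2 interval around RAI1, deleted in most patients with Smith-Magenis syndrome, RASD1 fell and none rose among 23 genes tested. Over all genes tested 6.1% fell and 8.31% rose. RASD1, a small GTPase induced by dexamethasone, was at 27.2, 41.0, 20.6 and 33.5 CPM in WT and 15.8, 7.57, 4.51 and 7.35 CPM in HET (log2 fold change -1.80 ± 0.33 (SE), adjusted p = 0.00394), without overlap. At day 3 its difference was the other way (log2 fold change 1.04, adjusted p = 0.00415), and the difference between the days passed the test (-2.81, adjusted p = 1.41e-05). Without HET replicate 1, 8 genes of the interval fell, in a fit where 18.0% of all genes tested did.

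Of 50 tested markers of cells other than neurons 6 rose (12%) and 5 fell (10%), beside 8.31% and 6.10% over all tested genes. Astroglial markers rose in 1 of 8 cases (SLC1A2) and fell in 2, with a summed level of 124 to 139.5 in WT and 188 to 376 in HET CPM. SLC1A2 held most of each sum, at 71.0 to 88.0 CPM in WT and 168 to 365 CPM in HET. The median log2 fold change of the list was -0.39, and -0.97 without HET replicate 1. GJA1, the gap junction protein of astroglia, was at 22.6, 17.2, 11.23 and 11.6 CPM in WT and 0.794, 0.709, 0.0688 and 1.60 CPM in HET (log2 fold change -4.34 ± 0.59 (SE), adjusted p = 7.69e-04). SOX9, a glial factor, was at 6.17, 7.08, 3.01 and 2.37 CPM in WT and 0.409, 0.355, 0.275 and 0.299 CPM in HET (log2 fold change -3.78 ± 0.48 (SE), adjusted p = 4.98e-04). Neural crest and Schwann markers rose in 2 of 10 cases, NGFR and TFAP2A, and SNAI2 fell (log2 fold change -2.43 ± 0.29 (SE), adjusted p = 3.04e-04). TFAP2A was read at low levels, 0.12 ± 0.063 CPM in WT and 0.83 ± 0.60 CPM in HET (SD, n = 4 each). The sums of the list were 93.5 to 169 in WT and 145 to 514 in HET CPM. Mesenchymal markers rose in 1 of 8 cases (THY1, log2 fold change 1.64 ± 0.37 (SE), adjusted p = 0.0111) and fell in 1 (COL1A2), with sums of 58.7 to 82.5 in WT and 55.4 to 82.5 in HET CPM. Of 6 endothelial markers CLDN5 fell (log2 fold change -2.46 ± 0.59 (SE), adjusted p = 0.0148), with sums of 16.7 to 19.7 in WT and 3.44 to 14.4 in HET CPM.

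Pluripotent stem cell markers rose in 2 of 7 tested cases and none fell, with sums of 119.5 to 169 in WT and 159 to 246 in HET CPM. LIN28A, which is part of these sums, had means of 22.3 CPM in WT and 94.9 CPM in HET. Of the 16 listed, 4 were at 3 counts or fewer in all 8 libraries. Besides LIN28A, PRDM14, a factor of naive pluripotency and germ cells, rose from 0.481, 0.609, 1.04 and 3.24 CPM in WT to 5.41, 14.9, 13.1 and 18.4 CPM in HET (log2 fold change 3.25 ± 0.56 (SE), adjusted p = 0.003), without overlap. No member passed among 7 oligodendrocyte markers (sums 126 to 345 in WT and 177 to 287 in HET CPM; OLIG2, adjusted p = 0.351), 5 epithelial markers (sums 8.07 to 19.9 in WT and 11.1 to 24.0 in HET CPM; CLDN6, adjusted p = 0.854) and 2 mesendodermal markers (sums 1.04 to 1.999 in WT and 0.896 to 3.39 in HET CPM; MESP1, adjusted p = 0.931). Of the 9 microglial and blood markers none reached the level for testing, 5 were at 3 counts or fewer in all 8 libraries, and the sums were 0.237 to 1.05 in WT and 0.299 to 0.673 in HET CPM. The part of these cell types in the changes of the neuronal lists was not tested.

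A set of genes was at or near 0 in every day 7 library of WT or of HET. The WT libraries held 3 counts or fewer each of 17 genes that reached a mean of 5 CPM in HET; since their values at day 7 chose them, these are a description. Among them MAGEH1, a MAGE family member (chrX:55452105-55453566, plus strand), was at 0 in all WT libraries and at 76.9, 29.4, 34.4 and 33.7 CPM in HET, at least 583-fold higher against a floor of 3 counts per library (0.0749 CPM). RRAGB, a GTPase that brings amino acid signals to the kinase mTORC1 (chrX:55717739-55758774, plus strand), was at 0 in WT and at 10.4, 28.7, 26.4 and 23.6 CPM in HET, at least 297-fold higher. PUS7L, a pseudouridine synthase relative on chromosome 12, and D21S2088E, a noncoding RNA on chromosome 21, were both at least 298-fold higher. KLF8, a Krüppel-like factor on chromosome X, was at least 180-fold higher, with 1 count at most in a WT library. HET replicate 1 was the highest HET library for MAGEH1 and the lowest for RRAGB and PUS7L.

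CRYZ, a quinone reductase also found as a lens crystallin (chr1:74705482-74733408, minus strand), was at 0 in WT and at 9.23, 12.03, 8.71 and 16.8 CPM in HET, at least 156-fold higher. TYW3, an enzyme of transfer RNA modification that overlaps CRYZ on the other strand, was at 0 in WT and at 5.195, 8.59, 8.23 and 9.82 CPM in HET, so that their reads cannot be told apart without strand. POU3F4, a POU homeobox factor of brain and inner ear (chrX:83508261-83512127, plus strand), was at 0 in WT and at 21.1, 1.65, 1.74 and 8.44 CPM in HET, at least 110-fold higher. Of the 17 genes, 13 were also higher in HET at both day 3 and day 0: CRYZ, for example, had a mean of 33.7 CPM at day 3 and 32.5 CPM at day 0 in HET and 0 in WT at both, and MAGEH1 40.1 and 13.3 CPM in HET and 0 in WT. The exceptions were HOXB9, SLC24A4, PAPPA-AS1 and ENSG00000260391. HOXB9 was above the floor in only 2 HET libraries at day 7, and PAPPA-AS1 and ENSG00000260391 in 3 each. SLC24A4, a sodium and calcium exchanger, had means of 0.0659 CPM at day 3 and 0.460 CPM at day 0 in HET, beside 0.0410 and 0.391 CPM in WT. KO libraries at day 7 held a mean of 42.9 CPM for MAGEH1, 25.6 CPM for RRAGB, 7.36 CPM for CRYZ and 5.73 CPM for POU3F4, but 0.0957 CPM for PAPPA-AS1, which was at 5.32 CPM in HET.

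The reverse held for 2 genes. ZNF595, a KRAB zinc finger protein (chr4:53285-88211, plus strand), was at 7.79, 6.76, 6.93 and 3.39 CPM in WT and at 0 in all 4 HET libraries, at least 75.6-fold lower against the floor of 3 counts per library in HET. It was at 7.37, 7.62, 6.92 and 5.79 CPM in KO, and KO exceeded HET (adjusted p = 9.20e-06). At days 3 and 0 its WT means were 4.62 and 10.3 CPM and its HET means 0. Among the largest falls with some reads left in HET were those of KLHL40, a regulator of muscle thin filaments, at 35.5, 27.2, 17.4 and 9.28 CPM in WT and 2.21, 0.0507, 0 and 0.299 CPM in HET (log2 fold change -5.09 ± 1.00 (SE), adjusted p = 0.00549), the histones H3C8 and H3C2 and CTHRC1, as above, and PALMD, a palmdelphin of the membrane skeleton (log2 fold change -4.36 ± 0.67 (SE), adjusted p = 0.00153). The other gene silent in HET, ENSG00000288725, has no symbol in the file and was at 5.86, 15.0, 12.3 and 5.80 CPM in WT, at 0 in HET and at 0.215, 12.5, 25.9 and 10.0 CPM in KO; unlike ZNF595 it was read in HET on the other days, with means of 5.93 CPM at day 3 and 0.446 CPM at day 0.

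The promoters of 4 of these genes are shown because their transcripts were present in 1 genotype and at 0 in the other; each window holds 300 bases around the start that RefSeq annotates, most of them before it (GRCh38.p14), 5′ to 3′ on the gene's strand, with every CG dinucleotide in capitals. The CRYZ window lies inside the longer gene of the GENCODE annotation.
RRAGB promoter, chrX:55717499-55717798, plus strand: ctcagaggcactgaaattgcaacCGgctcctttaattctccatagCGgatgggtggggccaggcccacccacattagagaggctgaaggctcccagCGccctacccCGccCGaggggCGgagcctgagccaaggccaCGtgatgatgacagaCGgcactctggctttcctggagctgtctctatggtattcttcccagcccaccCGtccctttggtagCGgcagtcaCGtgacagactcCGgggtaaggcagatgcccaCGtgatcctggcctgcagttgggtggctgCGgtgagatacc
CRYZ promoter, chr1:74733001-74733300, minus strand: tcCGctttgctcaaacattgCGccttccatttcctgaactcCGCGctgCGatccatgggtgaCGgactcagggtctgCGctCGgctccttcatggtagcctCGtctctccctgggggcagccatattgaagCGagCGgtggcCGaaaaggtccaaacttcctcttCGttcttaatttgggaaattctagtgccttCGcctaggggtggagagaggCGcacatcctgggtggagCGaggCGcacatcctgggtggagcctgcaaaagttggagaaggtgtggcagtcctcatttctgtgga
POU3F4 promoter, chrX:83508040-83508339, plus strand: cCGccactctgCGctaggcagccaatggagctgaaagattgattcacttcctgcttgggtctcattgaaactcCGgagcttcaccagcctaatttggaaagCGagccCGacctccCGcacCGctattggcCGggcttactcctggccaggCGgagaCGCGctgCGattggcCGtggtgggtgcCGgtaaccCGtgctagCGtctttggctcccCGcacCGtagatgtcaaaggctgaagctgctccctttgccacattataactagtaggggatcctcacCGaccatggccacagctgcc
ZNF595 promoter, chr4:53071-53370, plus strand: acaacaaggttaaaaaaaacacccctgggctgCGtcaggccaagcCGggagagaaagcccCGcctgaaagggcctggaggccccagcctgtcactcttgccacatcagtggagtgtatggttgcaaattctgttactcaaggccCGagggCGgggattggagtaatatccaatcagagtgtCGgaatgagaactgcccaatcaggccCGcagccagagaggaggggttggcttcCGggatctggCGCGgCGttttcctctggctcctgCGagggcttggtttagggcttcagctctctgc
The windows hold 14, 17, 19 and 12 CG dinucleotides, beside a median of 14 (quartiles 4 and 28) over all 35116 windows of 300 bases in the table. Of the genes at the floor in WT, 8 symbols matched 12 windows, which held 8 to 27 CG with a median of 14, beside a median of 24 in the windows of genes tested. These counts describe the sequence, and methylation was not measured.

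On chromosome X 119 of 697 tested genes rose (17.1%) and 37 fell (5.31%), beside 8.31% and 6.10% over all tested genes. The next highest share of rises was 13.1% on chromosome 18, and the lowest 4.01% on chromosome 22. Without HET replicate 1 the share that rose on X was 27.0% and without WT replicate 1 it was 13.9%, beside 16.7% and 5.68% of the same genes overall. At day 3, 45 of 644 X genes were higher in HET (6.99%, beside 2.61% overall), and at day 0, 43 of 632 (6.80%, beside 1.14%). MAGEH1, RRAGB, KLF8, POU3F4, GABRA3, GLRA2, TENM1 and NLGN3 are among the X genes that rose.

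**Figure D4:**
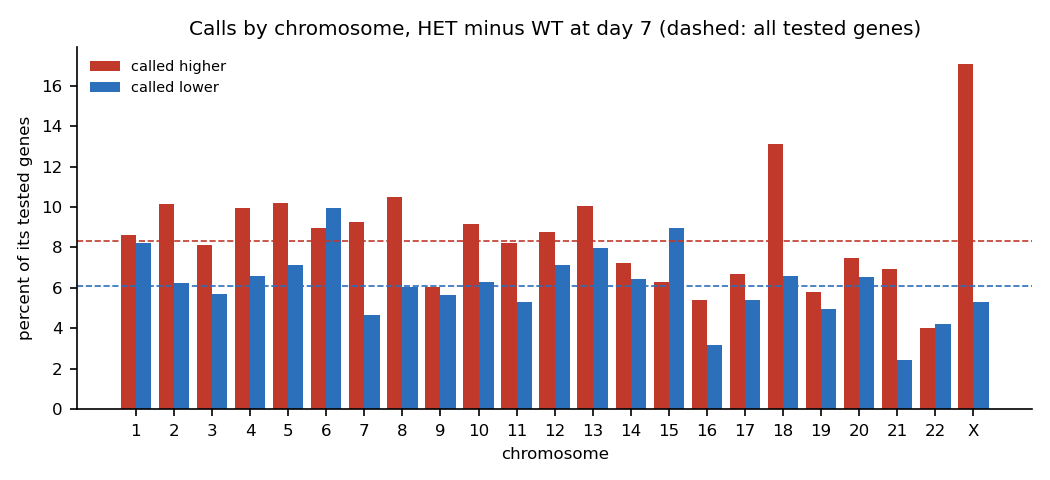
Bars give, for each chromosome on the x axis, the percent of its tested genes that rose (red) or fell (blue) in HET at day 7; dashed lines are the shares over all tested genes. Chromosome X has the tallest red bar, 17.1%, and its blue bar, 5.31%, is under the dashed line.

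Among 20451 tested genes with an annotated exon length, 3.81% of the shortest of 5 equal groups rose and 13.4% of the longest, while 5.45 to 7.23% of each group fell. The median log2 fold change ran from -0.18 to 0.13. In the longest group the median of log2(CPM + 1) minus the WT mean was -0.088, 0.065, -0.002 and 0.024 in WT. It was -0.094, 0.212, 0.184 and 0.126 in HET, so HET replicate 1 lay below every WT library. The shares by length were not computed without either replicate 1. Fitted with an offset per library for the trend of level on length, the median was 0.13 in the shortest group and 9.14e-04 in the longest, 3321 genes were called and 2926 of the 3129 calls were kept. The counts were then 21 of 42 adhesion genes higher, 16 of 26 postsynaptic genes higher, 28 of 35 mitosis genes lower and 59 of 77 ribosomal protein genes lower.

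Most of the day 7 differences were not called on earlier days. At day 3, 670 of 20146 genes also tested at day 7 were called (3.33%), and 300 of the 2823 day 7 calls tested there were called in the same direction, with 31 the other way. At day 0, 292 of 18827 genes were called (1.55%), and 179 of 2759 day 7 calls were called the same way, with 7 the other way. The genes that rose at day 7 had a median log2 fold change of 1.55 on that day, 0.41 at day 3 and 0.18 at day 0, and those that fell had -1.34, -0.24 and -0.05. The difference between day 7 and day 3 was itself called for 1120 of 21696 genes (5.16%), among them 790 of the day 7 calls with the sign of the day 7 difference and 10 against it. Since the day 7 libraries chose the calls and enter this test, that share is a description.

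Lists followed different courses. Mitosis genes had a median of -0.05 at day 3 with no call, and for 23 of 35 the difference was lower at day 7 than at day 3 by the test of the 2 days against each other. CCNB2, for example, had a log2 fold change of -0.05 at day 3, and the change between the days was -3.54 (adjusted p = 6.64e-04). Proneural factors were highest relative to WT at day 3, where 11 of 21 rose with a median of 1.57; by day 7, 6 had a lower difference. NEUROD1 rose at day 3 (log2 fold change 1.60, adjusted p = 0.0181) and fell at day 7, a change of -3.61 (adjusted p = 9.97e-04). Cholesterol genes had no call at day 3 (median 0.03), and 5 of 25 had a higher difference at day 7. Pan-neuronal genes had a median of 1.18 at day 3, and 2 of 20 had a lower difference at day 7. SYT11 was already higher at day 3 (3.04, adjusted p = 1.30e-04) and at day 0 (3.23, adjusted p = 1.11e-05).

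**Figure D5:**
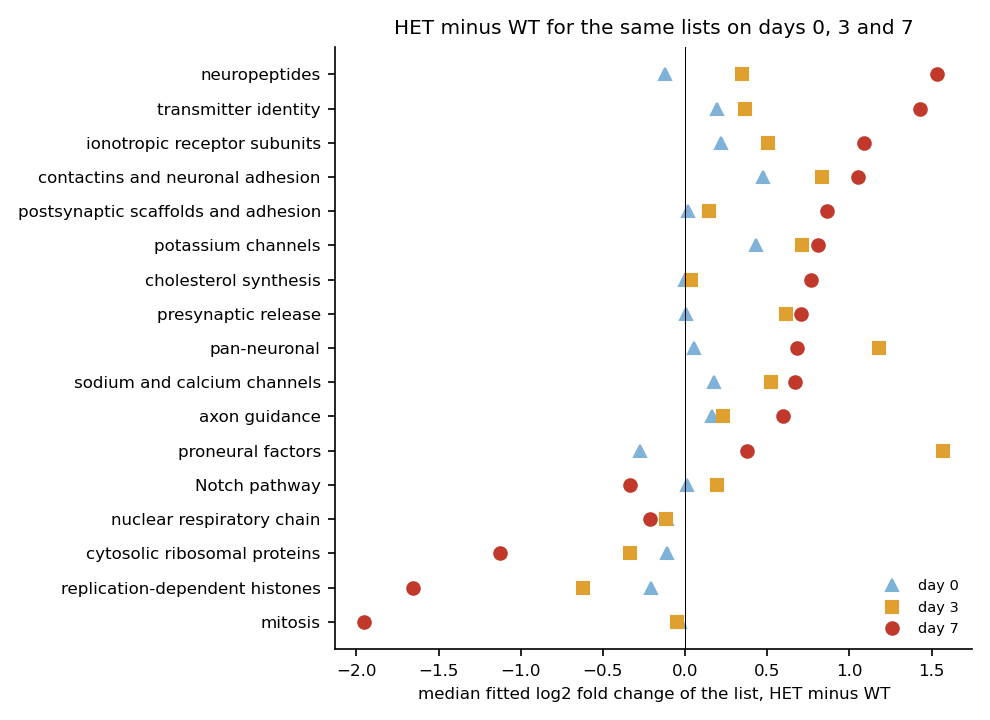
For each gene list on the y axis, the median fitted log2 fold change of HET over WT is shown at day 0 (triangle), day 3 (square) and day 7 (circle). Mitosis genes are near 0 on days 0 and 3 and at -1.95 on day 7, and proneural factors lie farther to the right on day 3 than on the other days (1.57).

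The KO libraries of day 7 share the WT controls with HET, and those controls helped to choose the HET calls. The values of both are therefore given side by side, and no overlap of their calls against WT is drawn. The genes that rose in HET had a median log2 fold change of 1.55 in HET and 1.82 in KO, and those that fell had -1.34 and -1.50. Means ± SD over the 4 libraries of WT, HET and KO, in this order, were 87.9 ± 26.6, 491 ± 35.9 and 313 ± 12.6 CPM for SYT11. For NEUROD1 they were 428 ± 72.3, 105 ± 77.3 and 11.8 ± 5.10 CPM, and for HMGCS1 216 ± 37.5, 686 ± 227 and 934 ± 193. Tested directly, KO and HET differed in 305 of 21714 genes (1.4%). Of the 3129 day 7 calls of HET, 140 were among them (4.47%), 70 with the sign of the HET difference and 70 against it. The HET libraries chose these calls and enter this test, so the count is a description. Among the genes chosen by rule KO was below HET for NEUROD1 (log2 fold change -3.14), HEYL (-2.18), FZD2 (-1.998), NOTCH2 (-1.81), SNAI2 (-1.69) and SIX4 (-1.57), so these were lowest in KO, and KO was above HET for LIN28A (1.29), CTHRC1 and the pair of genes silent in HET. A difference that missed the threshold does not show that KO and HET were alike.

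The KO libraries of days 3 and 7 give a direction of change with time that uses no WT or HET library. In them 4887 of 20266 genes rose from day 3 to day 7 (24.1%) and 4414 fell (21.8%). Of the 1734 genes higher in HET at day 7 that were tested there, 1325 (76.4%) rose with time in KO and 65 fell. Of the 1253 lower in HET, 833 (66.5%) fell with time in KO and 44 rose.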

How the data were processed

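RNA-seq of 36 libraries was deposited as tables of expected counts, TPM and FPKM per gene; the comparison uses 8 of them, with the day 3, day 0 and KO libraries beside it. The submitters' processing notes name cutadapt 4.8, FastQC 0.11.8, MultiQC 1.20, STAR 2.7.8a, RSEM 1.3.3 and GRCh38; the role of each, the annotation and the use of strand are not given in the sources used here. The expected counts deposited by the authors are whole numbers in the table and were used as they stand. The TPM values deposited by the authors entered only an alternative, as log2(TPM + 1) in limma 3.58.1. The FPKM table was not used.

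Genes were kept by edgeR's filter on low counts over the 12 day 7 libraries, scaled by the trimmed mean of M-values and tested with edgeR 4.0.16 (R 4.3.3; quasi-likelihood, Benjamini-Hochberg adjusted p under 0.05), with HET, WT and KO sharing 1 estimate of the spread. The SE is the fold change divided by the square root of the F statistic. The difference between days was tested in 1 fit of all 36 libraries. DESeq2 1.42.0, other scalings, no filter, the replicate block, the small RNA share as covariate and leaving out each library were alternatives; gene length offsets were added after seeing the data. Single values were compared by exact permutation tests (scipy 1.17.1). The edgeR step was tested on simulated data. Positions, lengths and overlaps come from a GENCODE annotation of GRCh38.

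The comparison, the gene lists and the markers were chosen with earlier results of these data known. Genes were named by rule: RAI1 and members of its complex, the 6 largest rises and falls without overlap and at 5 CPM or more, up to 4 called members of each list by size of change, and genes at 3 counts or fewer in every library of 1 group. Members named as the few of a list that moved in 1 direction, and defining markers, were chosen after their values were seen. Some genes the rule named are not reported here; they stay in the fits and in the counts over lists.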

Additional observations from a re-analysis of the deposited data

Results flagged for a closer look

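In 17 of the 274 groups of 4 libraries examined, 1 library stood apart from the other 3 of its group by Dixon's criterion, and chance flags about 1 in 20 such groups. HET replicate 1 was the outlying library in 8 of them, WT replicate 1 in 4, HET replicate 3 in 3, and HET replicate 4 and WT replicate 2 in 1 each. HET replicate 1 was high in MAGEH1 at 76.9 CPM (others 29.4 to 34.4), KLHL40 at 2.21 CPM (others 0 to 0.299), BCL11A at 2.26 CPM (others 1.28 to 1.37), CRABP2 at 103 CPM (others 71.4 to 73.0), HOXB9 at 137 CPM (others 0 to 7.43) and CLDN5 at 5.10 CPM (others 0.507 to 1.23). HET replicate 1 was low in PHF14 at 87.8 CPM (others 121 to 127) and RDH10 at 2.38 CPM (others 12.3 to 14.3). WT replicate 1 was high in BCL11A at 30.8 CPM (others 10.6 to 13.5) and TGFB2 at 66.3 CPM (others 15.2 to 20.9). WT replicate 1 was low in SHANK2 at 3.00 CPM (others 9.20 to 10.3) and LRRTM4 at 2.69 CPM (others 7.26 to 7.74). HET replicate 3 was high in LMO3 at 116 CPM (others 5.82 to 18.1), BMP2 at 7.38 CPM (others 4.28 to 4.70) and SLC2A1 at 59.2 CPM (others 14.9 to 21.0). HET replicate 4 was high in H19 at 49.0 CPM (others 15.7 to 19.5). WT replicate 2 was low in SLC1A2 at 71.0 CPM (others 86.9 to 88.0). The weight of HET replicate 1 in RDH10 and HOXB9 touches results given above: RDH10 was low and the other libraries of HET high, while HOXB9 was high in that library.

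The difference of HET from WT was itself different at day 7 and day 3 for 45 of the 134 genes chosen by rule, in edgeR's test of the 2 days against each other (adjusted p under 0.05 over all genes), beside 5.16% of all genes tested. Most of these genes were chosen by the size of their day 7 difference, which enters the test, so the count is a description. The values that follow are the day 7 difference minus the day 3 difference on the log2 scale. Positive values were found for genes of synapses, channels, adhesion and guidance: RAB3C 1.85, GABRA3 3.19, KCNMA1 3.31, SEMA3D 2.59, UNC5D 2.68, PCDH7 4.64, NCAM2 3.12, TENM1 3.14 and OPCML 5.43. They were also found for the prohormone convertase PCSK1 1.98, the growth factor receptors RET 2.77 and NGFR 1.502, and genes of cholesterol synthesis and sugar use: HMGCS1 1.44, MVD 1.52 and HK1 1.298. The other positive values belonged to stem cell and retinoid genes: LIN28A 1.53, PRDM14 3.51 and RDH10 2.03. Negative values were found for proneural, Notch and identity factors: NEUROD1 -3.61, NEUROG1 -3.34, NEUROD4 -2.19, NOTCH2 -2.77, NOTCH3 -1.97, HEYL -2.01, SIX4 -2.08 and BCL11A -2.44. So were they for genes of division and histones: RRM2 -3.28, KIF20A -3.78, CCNB2 -3.54, UBE2C -3.46, DLGAP5 -3.33, H1-5 -2.76, H3C8 -3.69 and H3C2 -3.90. Signalling and matrix genes with negative values were COL4A5 -2.37, SFRP1 -2.65, FZD7 -1.998, FZD2 -1.504 and TGFB3 -2.25. The remaining negative values were KLHL40 -5.11, PALMD -4.45, RASD1 -2.81, GJA1 -3.94 and CLDN5 -3.78. ENSG00000288725, at 0 in HET at day 7, had a fitted value of -13.24, which is no measured size.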

How the results depend on the processing

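The 3129 calls kept their direction under all 19 other settings wherever they were called. The numbers of genes higher and lower were 179 and 92 with limma on log2(TPM + 1), where the median of all genes was 0.46 and 66.1% of the calls were higher, beside 57.7% as reported, and 935 and 739 when only the 2 groups entered the fit. Leaving out libraries gave 1004 to 3996 higher and 696 to 4004 lower; the share of calls that were higher was 47.8% without HET replicate 1. Calls that also differed between KO and HET numbered 387 with DESeq2, 6 with limma, 73 with the 2 groups alone, 427 with the small RNA share as covariate and 88 to 347 when libraries were left out. Calls made in the same direction at day 3 and day 0 numbered 516 and 285 with DESeq2 and 19 and 55 with limma. Calls that differed between day 7 and day 3 numbered 43 with limma, 269 with the 2 groups alone and 419 to 1936 when libraries were left out. Calls that rose or fell with time in KO numbered 71 and 73 with limma, 717 and 483 with the 2 groups alone, and 745 to 2142 and 453 to 1763 when libraries were left out. The cause of these shifts was not tested; fewer libraries or groups enter the fits that leave some out.

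The replicate numbers were not taken to pair the libraries, since the labels do not say that they do and not every pair's correlation was above 0.1: deviations of HET and WT libraries of the same number correlated at 0.20, 0.42, -0.06 and 0.13 across genes for numbers 1 to 4. With the number as a block, 1860 genes rose and 1483 fell, and 602 and 273 calls were shared in direction with day 3 and day 0.

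Signs turned for some genes. With limma on log2(TPM + 1) the difference was 0.044 for UHRF1, 0.14 for MCM3, 0.35 for NSMCE3 and 0.028 for TEF, which had been called lower. Among genes not called it was 0.33 for OLIG2, 0.19 for CLDN6 and 0.17 for MESP1. The median over all genes on that scale was 0.46, above each of these values. MT-CO1 was at -0.019 with the replicate block, -0.65 with the small RNA share and -0.12 to 0.36 when libraries were left out, and RN7SL1 was at 0.014 with the share. CLDN6 was at 0.098 with the share and -1.38 to 0.10 when libraries were left out, and MESP1 at 0.30 and -1.04 to 0.22. The library total, HET minus WT, ran from -7692000 to 217400 counts when libraries were left out. Of the 126 named genes that were called, 1 lost its call without HET replicate 1 and 20 without WT replicate 1. When another library was left out 9 to 22 lost it. With limma 78 lost it, besides UHRF1, MCM3, NSMCE3 and TEF, whose sign turned. The call was lost by 18 with the 2 groups alone, 15 with the small RNA share and 3 with the replicate block.

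Genes at a few counts per library carry wide errors, and a change in them was not detectable at this depth where it was not called.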

Other observations

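From a list of 28 genes of skeletal muscle and of calcium release, drawn up after their values had been seen, 21 were tested, 7 fell and none rose, beside 6.10% of all genes that fell. The choice of the list bears on this count, which describes these genes only. ATP2A1, the calcium pump of fast muscle, was at 103, 35.7, 34.98 and 37.0 CPM in WT and 6.04, 1.29, 0.573 and 2.58 CPM in HET (log2 fold change -4.33 ± 0.64, edgeR adjusted p = 0.00133). LMOD1, a leiomodin that nucleates actin, was at 114, 21.4, 30.1 and 28.03 CPM in WT and 5.65, 4.48, 1.97 and 3.92 CPM in HET (log2 fold change -3.60). In both genes all WT libraries were above all HET libraries and WT replicate 1 was the highest. JPH2, a junctophilin that couples membranes, CHRNA1, the muscle acetylcholine receptor subunit, STAC3, a partner of the muscle calcium channel, and PAX7, a satellite cell factor, had log2 fold changes of -3.63, -2.94, -2.65 and -1.95, and KLHL40 is given above. All 7 passed without HET replicate 1 and without WT replicate 1, PAX7 closest to the threshold (edgeR adjusted p = 0.0495 without WT replicate 1). PAX7 was read at low levels, 0.49 ± 0.13 CPM in WT and 0.13 ± 0.096 CPM in HET (SD, n = 4 each).

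RYR1, the calcium release channel of skeletal muscle, was at 672, 348, 271 and 301 CPM in WT and 338, 65.0, 28.7 and 81.6 CPM in HET, so that HET replicate 1 lay within the WT range and the other 3 below it (log2 fold change -1.63 ± 0.58, edgeR adjusted p = 0.077). KO held 8.68 ± 1.07 CPM (SD, n = 4). RYR1 passed without HET replicate 1 (edgeR adjusted p = 3.45e-04) and not without WT replicate 1 (edgeR adjusted p = 0.209). KO was below HET for RYR1, CHRNA1 and LMOD1 (log2 fold change -3.89, -2.78 and -2.72). The structural genes of the sarcomere did not pass in the fit of all 12 libraries. ACTC1, cardiac actin, and MYH3, embryonic myosin, had log2 fold changes of -2.21 and -1.17 (edgeR adjusted p = 0.0592 and 0.0529) and passed without HET replicate 1 (edgeR adjusted p = 0.0489 and 0.0284). TTN, which encodes titin, was at 48.7 ± 11.9 CPM in WT and 35.2 ± 6.97 CPM in HET (edgeR adjusted p = 0.18), and ACTA1, skeletal actin, was at 0.406 ± 0.115 and 0.393 ± 0.233 CPM (edgeR adjusted p = 0.944).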
